A study of Rattus norvegicus with 53 samples.

Results

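L6 is a line of rat skeletal muscle myoblasts that fuse into myotubes, and 10 genes of the G1 control system were followed in its myotubes over 8 hours of insulin. The genes are the D-type cyclins Ccnd1, Ccnd2 and Ccnd3, their partner kinase Cdk4 and its substrate Rb1, the Cip/Kip inhibitors Cdkn1a, Cdkn1b and Cdkn1c, and the G-type cyclins Ccng1 and Ccng2. They were chosen by name: a probe set counted for a gene if the platform annotation gave that gene as its single symbol, and the brightest probe set of each gene was used. All 10 genes were found, on 14 of the 31099 probe sets of the array, and all 14 were bright enough to be tested. In all, 11577 genes had a tested probe set. The insulin culture received serum-free medium with 20 nM insulin after time 0, and the control culture received the same medium without insulin. By the protocol both had been taken through differentiation with little serum and then through 8 hours without serum, although the labels still name the cells as myoblasts. Each array of hours 1 to 8 reports a pool of 3 samples taken 20 min apart in 1 culture, and both cultures were also measured at time 0, before any insulin. On separate days the whole experiment was done 3 times with the same cell line. The labels carry the letters a, b and c, which were read as these repeats. This gave 53 arrays in 18 groups, 3 in each except the insulin culture of hour 3. In that group letter a was not analysed here and 2 arrays remain. All values are log2 levels, so that a difference of 1 is a doubling, and levels of different probe sets are not compared with each other.

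In a dividing cell, D-type cyclins are made when growth factors are present, bind Cdk4 or Cdk6, and the complex phosphorylates the retinoblastoma protein Rb1, which then releases E2F factors that turn on genes of DNA replication. The Cip/Kip proteins p21 (Cdkn1a), p27 (Cdkn1b) and p57 (Cdkn1c) bind cyclin and kinase complexes and hold the cycle in G1. Cyclins G1 and G2 resemble cyclins in sequence, but cyclin G2 is known for high levels in quiescent cells and cyclin G1 as a target of p53. Myotubes have left the cell cycle for good, with high p21 and cyclin D3 as known features. Insulin signals through PI3K and Akt, and Akt phosphorylates FOXO factors and keeps them out of the nucleus. Cdkn1b and Ccng2 are known FOXO targets in other cells.

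Over hours 1 to 8, Ccng2 and Cdkn1b were lower and Ccnd1 was higher in the insulin culture than in the control culture, while the other 7 genes did not pass the test. In the group means most of the separation arose after hour 2. In hours 5 to 8 the insulin culture was 2.70-fold lower for Ccng2, 1.48-fold lower for Cdkn1b and 1.52-fold higher for Ccnd1. In the fit without the letter, the change of the difference from hours 1 and 2 to hours 5 to 8 passed for Ccng2 alone. It did not pass for Ccng2 without letter b or without letter c. Between time 0 and hours 5 to 8, Ccng2 rose and Ccnd1 fell in the control culture. In the insulin culture no member passed a test of that change. With the letter as a block Cdkn1c alone passed at its brightest probe set, through the time 0 array of letter a. A dimmer probe set of Ccnd1 then also passed, downward. A test of the difference between the changes of the cultures was passed by Ccng2 alone. It passed only with a block, of the letter or of letter and hour together.

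The region before the start of Ccng2 is printed because this gene had the largest difference, and that of Cdk4 because it holds the only matches of a motif search. RefSeq promoters (assembly GRCr8) were matched by symbol for 7 of the 10 genes, and the 250 bases before the start in that table were read, 5′ to 3′ in the direction of the gene. Ccng2 lies at chr14:15088694-15097190 and the printed stretch at chr14:15097191-15097440 on the minus strand. Cdk4 lies at chr7:64771453-64774891 and its stretch at chr7:64771203-64771452 on the plus strand. For Ccnd3, Rb1, Cdkn1a and Cdkn1b the start in the table lies inside the annotated gene, and their stretches are not printed. Capitals mark E-boxes.
Ccng2: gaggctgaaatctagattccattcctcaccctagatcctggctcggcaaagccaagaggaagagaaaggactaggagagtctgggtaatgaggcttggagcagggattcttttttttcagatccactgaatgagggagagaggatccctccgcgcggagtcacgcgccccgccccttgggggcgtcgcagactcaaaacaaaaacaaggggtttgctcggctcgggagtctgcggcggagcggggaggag
Cdk4: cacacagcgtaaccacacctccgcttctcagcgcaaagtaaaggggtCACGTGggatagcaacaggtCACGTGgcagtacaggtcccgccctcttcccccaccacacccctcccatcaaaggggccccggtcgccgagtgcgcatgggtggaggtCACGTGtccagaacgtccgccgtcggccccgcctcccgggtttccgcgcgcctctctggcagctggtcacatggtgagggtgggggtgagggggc
The motifs searched on both strands were the FOXO core TGTTTAC, the E-box CACGTG, the cyclic AMP element TGACGTCA, and the E2F-type sites TTTCCCGC and TTTGGCGC, and no match overlapped another. Ccng2 held none of them. Of all 33469 promoters of this length, 3.21% held the FOXO core, 5.59% the E-box, 1.59% the cyclic AMP element, and 0.813% and 0.412% the first and the second of the E2F-type sites. Cdk4 held 3 E-boxes, and none of these letters stood in the window of the other 6 genes.

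Before the results, 2 sets of arrays have to be named. The control arrays of hours 0 to 5 in letter b correlated with each other at a mean of 0.644 (deviations from the mean of each probe set) and with the other arrays of letter b at 0.0151, against 0.42 among those others. The array of the insulin culture at time 0 in letter a correlated with the rest of its letter at a mean of 0.112, against 0.429 to 0.605 for the other arrays of letter a. Results are therefore given with and without these arrays where they change. The array medians lay between 6.3 and 6.37. Of 14 markers of differentiated myotubes, 0 were called in either direction over hours 1 to 8 and their median level was 12.2. Of 10 genes of proliferating cells, with levels of 7.49 to 12.4, 0 were called, and the mean over the list overlapped between the cultures, at 8.90 to 10.02 in insulin arrays and 8.79 to 9.99 in control arrays. With the letter as a block 4 of the 14 myotube markers were lower, against 15.2% of all tested probe sets, and 1 of the 10 proliferation genes was higher, against 11.7%, and their part in the results was not tested. Endothelial markers were not among the tested probe sets, and the macrophage markers tested had levels of 5.11 and 5.57. Bulk arrays cannot tell fewer cells of a type from less RNA per cell.

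The mean difference over hours 1 to 8 passed for 1 of 10 members upward and for 2 of 10 downward (limma, Benjamini-Hochberg adjusted p under 0.05), against 5.53% of all tested probe sets upward and 6.63% downward. The median difference was -0.09 over the members and 0.00 over all tested probe sets. In hours 5 to 8 the same 3 genes passed, 1 upward and 2 downward, against 4.02% and 5.33%. The plot of the differences with their intervals shows that for Ccnd3, Cdkn1a and Cdkn1c the intervals are wide, so that these data do not settle the sign of any difference they may have.

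**Figure D1:**
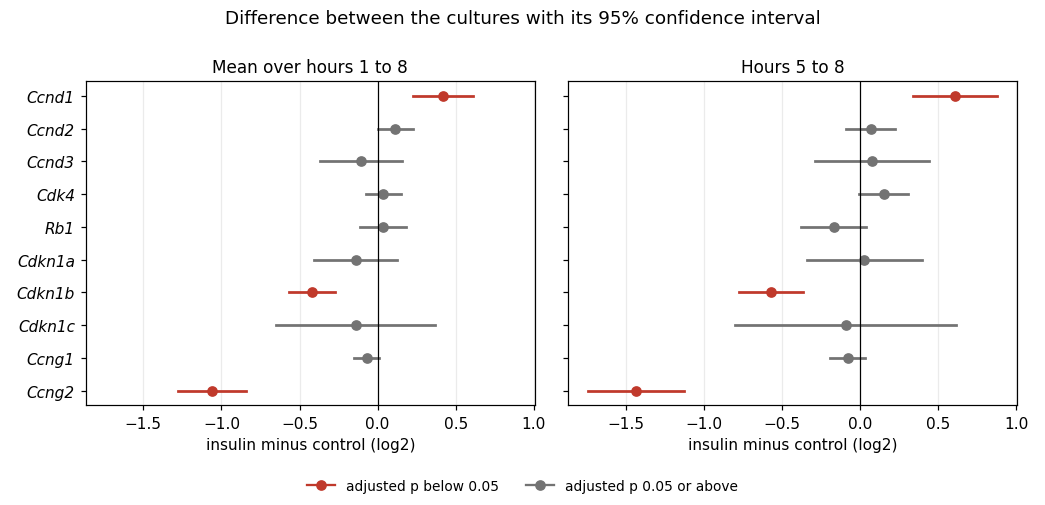
Insulin minus control on the log2 scale for each gene (rows), as the mean over hours 1 to 8 (left) and over hours 5 to 8 (right), with 95% confidence intervals from the limma fit over 53 arrays. Ccnd1 lies right of 0 and Cdkn1b and Ccng2 left of 0 in both panels (red), and the intervals of Cdkn1c are the widest.

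Ccnd1 encodes cyclin D1, the D-type cyclin that growth factors induce in many cells. In hours 5 to 8 its level in the 12 insulin arrays was 12.15 at the lowest, 12.44 at the median and 12.58 at the highest, and in the 12 control arrays it was 11.10, 11.90 and 12.26. The groups overlapped, but within the same letter and hour the insulin array was higher in all 12 pairs, and over hours 1 to 8 in 21 of 23. At hour 6 the insulin arrays of letters a, b and c had 12.17, 12.32 and 12.58, and the control arrays 11.10, 12.26 and 12.03, so that letter b almost met there. The difference was 0.42 (SE 0.096, adjusted p = 0.00252) for hours 1 to 8 together. For hours 5 to 8 it was 0.61 (SE 0.13, adjusted p = 0.00176). By letter the difference of hours 5 to 8 was 0.86 in a, 0.40 in b and 0.56 in c. At hour 8 Ccnd1 was not above its mean of time 0 in either culture: the insulin culture averaged 12.36 ± 0.18 at hour 8 and 12.57 ± 0.09 at time 0, and the control culture 11.79 ± 0.36 and 12.45 ± 0.36 at the same times (SD, n = 3 each). Without letter b the adjusted p was 0.145 over hours 1 to 8 and 0.0551 over hours 5 to 8, and without the control and insulin arrays of hours 0 to 5 in that letter it was 0.0968 over hours 1 to 8, with differences of 0.43, 0.71 and 0.39. With 1 mean per letter, in place of arrays of different hours that enter as independent, the difference of hours 1 to 8 did not pass (adjusted p = 0.0617) and that of hours 5 to 8 did (adjusted p = 0.0107). The other probe sets of Ccnd1 gave 0.35 and 0.26 over hours 1 to 8 (adjusted p = 0.0101 and 0.0103), and their 18 group means correlated with those of the brightest at 0.969 and 0.938.

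Ccnd2, which encodes cyclin D2, had levels of 5.00 to 5.61 in the insulin arrays and of 4.94 to 5.56 in the control arrays of hours 1 to 8. Its mean level over all arrays, 5.27, was close to the lowest that was tested, 5.04. The difference was 0.11 (95% confidence interval 0.00 to 0.23, adjusted p = 0.198).

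Ccnd3 encodes cyclin D3, the D-type cyclin kept in differentiated muscle. Among the arrays of hours 5 to 8 its levels were 12.02 at the lowest, 12.41 at the median and 13.29 at the highest in insulin arrays, and 12.13, 12.32 and 12.94 in control arrays, and at hours 6 to 8 letter a was the highest in both cultures. The difference over hours 1 to 8 was -0.11 (95% confidence interval -0.37 to 0.16, adjusted p = 0.656). By letter it was 0.23 in a, -0.29 in b and -0.13 in c. In letter b, the insulin arrays averaged 12.43 in hours 6 to 8 and 12.33 in hours 0 to 5, and the control arrays 12.26 and 12.89, the step that sets the control arrays of hours 0 to 5 apart.

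The kinase and its substrate gave no call over hours 1 to 8. Cdk4, the catalytic partner of the D-type cyclins, had a difference of 0.04 over hours 1 to 8 (95% confidence interval -0.08 to 0.15, adjusted p = 0.733) and of 0.15 over hours 5 to 8 (-0.01 to 0.31, adjusted p = 0.275), with the insulin array higher in 10 of 12 late pairs. In letter b its insulin arrays averaged 11.10 in hours 6 to 8 and 11.02 in hours 0 to 5, and its control arrays 10.85 and 11.42, so the same step was seen in this gene.

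Rb1 encodes the retinoblastoma protein. At hour 2 the insulin arrays of letters a, b and c had 9.09, 8.90 and 8.80, and the control arrays 8.90, 8.24 and 8.36. At hour 8 the order was turned, with 8.71, 8.79 and 8.72 in insulin arrays and 9.28, 9.02 and 8.73 in control arrays. The difference was -0.17 (SE 0.10, adjusted p = 0.390) in hours 5 to 8 and 0.35 (SE 0.15, adjusted p = 0.429) in hours 1 and 2, and its change of -0.52 (SE 0.18) did not pass in the fit without the letter (adjusted p = 0.127) but did when the letter entered as a block (adjusted p = 0.00548), and with 1 mean per letter it did not (adjusted p = 0.104). In letter b the insulin culture was already 0.51 higher at time 0, and the change was -0.42 without its arrays of hours 0 to 5 (adjusted p = 0.609). In letter a the difference at time 0 was -0.36, and without letter a Rb1 passed over hours 1 to 8 with a difference of 0.19 (adjusted p = 0.00384). Its difference over hours 1 to 8 with all arrays was 0.03 (adjusted p = 0.814).

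Cdkn1b encodes p27, the inhibitor that accumulates in resting cells. In hours 5 to 8 its level was 9.80 at the lowest, 10.23 at the median and 10.68 at the highest in insulin arrays, and 10.57, 10.71 and 11.31 in control arrays. The groups overlapped at their edges, and within letter and hour the insulin array was lower in all 12 pairs, and in 21 of 23 over hours 1 to 8. At hour 5 the insulin arrays of letters a, b and c had 10.37, 10.09 and 9.83, and the control arrays 10.93, 10.60 and 10.67. The difference was -0.57 (SE 0.10, adjusted p = 0.000113) over hours 5 to 8, and by letter -0.50 in a, -0.44 in b and -0.78 in c. It passed over hours 1 to 8 without any 1 letter (adjusted p = 2.5e-05 without a, 0.0184 without b and 0.0211 without c). It did not pass over hours 1 to 8 with 1 mean per letter (-0.41, adjusted p = 0.0902) or relative to time 0 (-0.26, adjusted p = 1), while over hours 5 to 8 it passed with 1 mean per letter (adjusted p = 0.014). In the insulin culture the group means stood at 10.25 ± 0.18 at time 0, 10.57 ± 0.25 at hour 2 and 10.35 ± 0.36 at hour 8, and in the control culture at 10.41 ± 0.12, 10.79 ± 0.27 and 10.91 ± 0.34 (SD, n = 3 each). The lowest of the 18 group means were those of the insulin culture at hours 5, 6 and 7. The other probe set of Cdkn1b, with a mean level of 5.54, gave -0.32 over hours 1 to 8 (adjusted p = 0.0104) and -0.32 over hours 5 to 8 (adjusted p = 0.0891). With the letter as a block its difference of hours 5 to 8 passed (adjusted p = 0.0449).

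**Figure D2:**
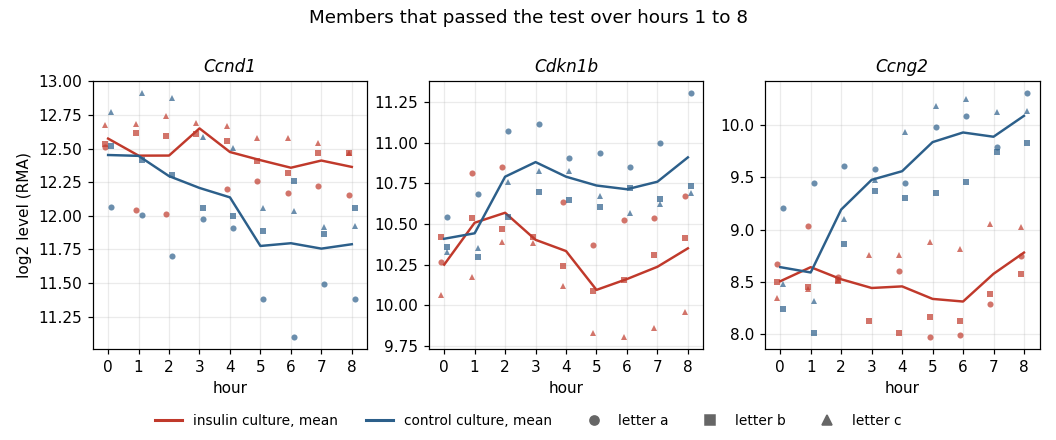
Log2 level (vertical axis, its own scale for each gene) against hour for Ccnd1, Cdkn1b and Ccng2, with each array as a point by letter and the group mean as a line, insulin culture in red and control culture in blue. The mean at hour 3 of the insulin culture holds letters b and c only. The lines part after hour 1, and in hours 5 to 8 the points of Ccng2 in the insulin culture, up to 9.06, all lie below those of the control culture, from 9.35.

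Cdkn1a encodes p21, which is also a target of p53 and of MyoD. In hours 5 to 8 its levels were 11.85 at the lowest, 12.21 at the median and 12.91 at the highest in insulin arrays, and 11.81, 12.26 and 12.76 in control arrays, almost the same range. The difference over hours 1 to 8 was -0.14 (95% confidence interval -0.41 to 0.13, adjusted p = 0.541), by letter 0.15 in a, -0.38 in b and -0.12 in c. Letter b showed the step again, with insulin averages of 12.22 in hours 6 to 8 and 12.20 in hours 0 to 5, and control averages of 12.14 and 12.85. The other probe set of Cdkn1a gave -0.05 (adjusted p = 0.881), and its group means correlated with those of the brightest at only 0.623.

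Cdkn1c encodes p57, an imprinted inhibitor. Its levels in hours 1 to 8 were 7.30 at the lowest, 7.60 at the median and 9.23 at the highest in insulin arrays, and 7.23, 7.65 and 9.46 in control arrays, and all arrays of letter a after time 0 lay between 8.63 and 9.46, above every array of letters b and c. The difference was -0.14 (95% confidence interval -0.65 to 0.37, adjusted p = 0.772), and by letter -0.34 in a, where the insulin array was lower at 7 of 7 hours, -0.03 in b and 0.09 in c. The exception in letter a was the insulin culture at time 0, whose array stands apart and had 7.12, against 8.85 in the control culture.

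**Figure D3:**
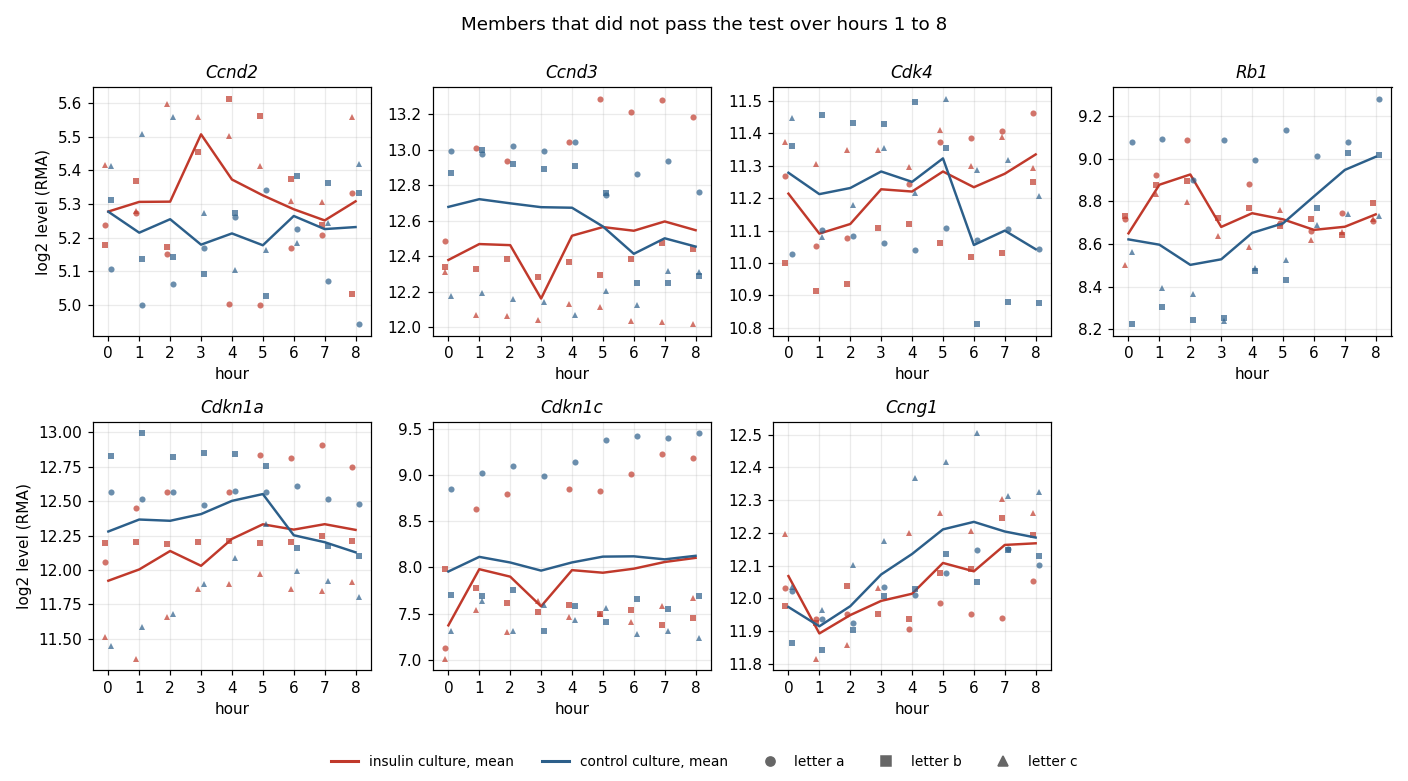
Log2 level (vertical axis, its own scale for each gene) against hour for the 7 genes that did not pass over hours 1 to 8, drawn in the same way. The insulin mean at hour 3 lacks letter a, and the control squares (letter b) of Ccnd3, Cdk4 and Cdkn1a drop between hours 5 and 6.

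Ccng1 encodes cyclin G1. It had levels of 11.94 to 12.30 in insulin arrays and 12.05 to 12.50 in control arrays of hours 5 to 8. The difference over hours 1 to 8 was small, -0.07 (SE 0.040, adjusted p = 0.273), and it passed when the letter was a block (adjusted p = 0.0425), where 3 of 10 members were lower against 15.2% of all tested probe sets, but not with 1 mean per letter (adjusted p = 0.528). It was lower at 8 of 8 hours in letter c and at 5 of 7 in a, but at 3 of 8 in b, whose mean was 0.03.

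Ccng2 encodes cyclin G2 and had the largest difference of the 10 members. At hour 6 the insulin arrays of letters a, b and c had 7.99, 8.13 and 8.82, and the control arrays 10.08, 9.45 and 10.25. At hour 1 they had 9.04, 8.45 and 8.44 in the insulin culture and 9.45, 8.01 and 8.31 in the control culture, which overlap. In hours 5 to 8 the 12 insulin arrays spanned 7.97 to 9.06 with a median of 8.48, and the 12 control arrays 9.35 to 10.31 with a median of 10.03. Ccng2 was the 1 member of 10 whose arrays did not overlap there, and the insulin arrays lay below all control arrays for 0.683% of all tested probe sets. The difference of hours 5 to 8 was -1.43 (SE 0.15, adjusted p = 8.68e-09), by letter -1.79 in a, -1.28 in b and -1.23 in c. Leaving out 1 letter at a time gave -1.53 to -1.25, and all 3 values passed (adjusted p = 1.92e-05 to 6.23e-05). With 1 mean per letter it was -1.43 (adjusted p = 0.00130).

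The plot of same-letter differences shows when the genes parted. In hours 1 and 2, 0 of 10 members passed, as did 0% of all tested probe sets in either direction, although 832 probe sets were higher and 1247 lower at an unadjusted p under 0.05. As differences of group means, Ccng2 had 0.05 at hour 1, -0.67 at hour 2, -1.03 at hour 3 and -1.10 at hour 4. At hour 3 the same-letter arrays of b and c gave a mean of -0.98. Ccng2 passed at hour 5 (-1.50, adjusted p = 0.0114), hour 6 (-1.61, adjusted p = 0.00403), hour 7 (-1.31, adjusted p = 0.0411) and hour 8 (-1.31, adjusted p = 0.0254). It was the only member called at these hours, against 0.232%, 0.282%, 0.232% and 0.533% of all tested probe sets lower. The letter as a block changed this: Ccng2 and Cdkn1b, 2 of 10, were then lower at every hour from 4 to 8, against 0.738%, 1.28%, 1.56%, 1.48% and 3.28% of all, and Ccnd1, 1 of 10, was higher at hours 5 to 8, against 1.29%, 0.788%, 0.606% and 1.83%. With the block, the adjusted p of the single hours from 5 to 8 lay between 0.00422 and 0.0163 for Ccnd1 and between 0.000256 and 0.00375 for Cdkn1b. These values are of the brightest probe sets. Of the other probe sets of Ccnd1, the brighter passed at each of hours 5 to 8 with the block (adjusted p = 0.002 to 0.0162). The dimmest passed at none of them (adjusted p = 0.0807 to 0.451). The other probe set of Cdkn1b passed at none of hours 4 to 8 with the block (adjusted p = 0.378 to 0.782).

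**Figure D4:**
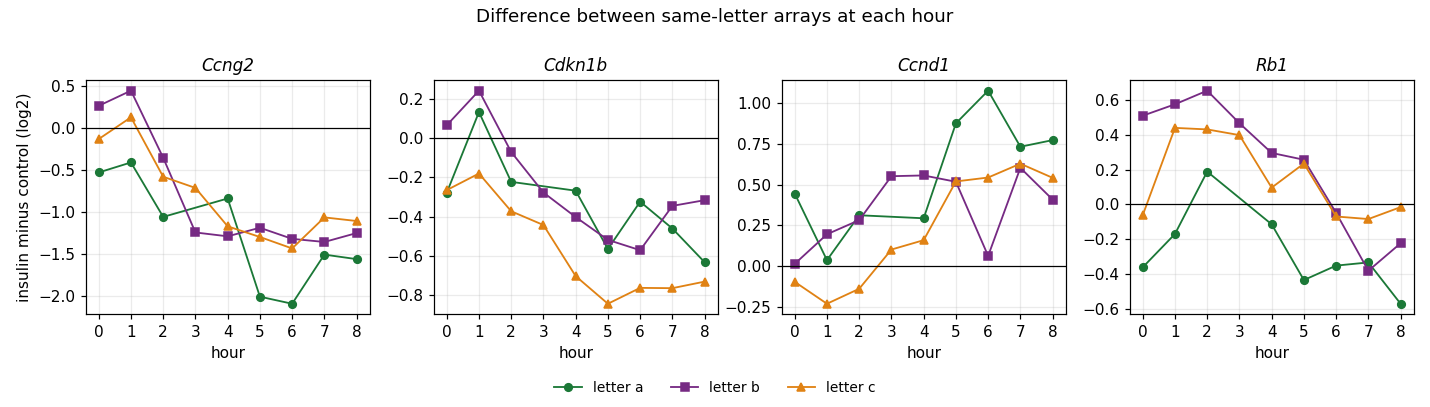
Insulin minus control on the log2 scale (vertical axis) against hour for Ccng2, Cdkn1b, Ccnd1 and Rb1, each line 1 letter. Ccng2 and Cdkn1b lie below 0 in all letters from hour 2, Ccnd1 lies above 0 in all letters from hour 3, and Rb1 lies above 0 in letters b and c at hour 1 and below 0 in all 3 at hour 8.

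The change of the difference between hours 1 and 2 and hours 5 to 8 passed for Ccng2, with -1.12 (SE 0.26, adjusted p = 0.0158), so 1 of 10 members was lower and 0 higher, against 0.915% and 0.929% of all tested probe sets. With the letter as a block, Ccng2, Cdkn1b (-0.49, adjusted p = 0.000719) and Rb1 were lower and Ccnd1 was higher (0.53, adjusted p = 0.00312), thus 3 and 1 of 10 against 5.76% and 6.23%. The other probe set of Cdkn1b had -0.11 and did not pass with the block (adjusted p = 0.781). With 1 mean per letter Ccng2 passed (adjusted p = 0.0418), but Cdkn1b (adjusted p = 0.0741), Rb1 and Ccnd1 (adjusted p = 0.119) did not. For Ccng2 the change no longer passed without letter b (-1.03, adjusted p = 0.252), without letter c (-1.19, adjusted p = 0.124) or without letter b at hours 0 to 5 (-0.99, adjusted p = 0.226).

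At time 0, where neither culture had insulin, 0 of 10 members and 0% of all tested probe sets differed in either direction, with 125 probe sets higher and 80 lower at an unadjusted p under 0.05. The pre-treatment minus control difference was 0.12 for Ccnd1, -0.16 for Cdkn1b, -0.13 for Ccng2 and -0.58 for Cdkn1c, with standard errors of 0.27, 0.20, 0.30 and 0.70. When this difference was subtracted, that of Ccng2 in hours 5 to 8 was -1.30 (SE 0.34, adjusted p = 0.112), and with the letter as a block its adjusted p was 0.0046, the only such call among the members, against 1.16% of all lower. Without the time 0 arrays of letter a the blocked value was -1.50 (adjusted p = 0.00771). For Cdkn1b and Ccnd1 the values relative to time 0 were -0.41 (adjusted p = 0.924) and 0.48 (adjusted p = 0.973), and 0.0704 and 0.0955 with the block, so they did not pass.

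Within each culture, hours 5 to 8 were set against time 0. In the insulin culture 0 of 10 members passed, against 0.515% of all tested probe sets higher and 0.943% lower, and Ccng2 had a change of 0.00 (SE 0.24), Cdkn1b of -0.04 (SE 0.16) and Ccnd1 of -0.19 (SE 0.21). In the control culture Ccng2 was higher by 1.29 (SE 0.24, adjusted p = 0.000441) and Ccnd1 changed by -0.67 (SE 0.21, adjusted p = 0.0458), 1 of 10 in each direction against 3.65% and 2.83%. The insulin arrays of Ccng2 in letters a, b and c had 8.75, 8.58 and 9.02 at hour 8 and 8.68, 8.50 and 8.35 at time 0. The control arrays had 10.31, 9.83 and 10.13 at hour 8 and 9.21, 8.24 and 8.48 at time 0, and hour 8 was the higher in each letter. With the letter as a block, Cdkn1b (0.37, adjusted p = 0.00159) and Ccng1 (0.24, adjusted p = 0.00494) were also higher in the control culture, 3 of 10 against 11.4%, and Cdkn1c was higher in the insulin culture (0.65, adjusted p = 0.0438), 1 of 10 against 4.26%. That call of Cdkn1c rested on the time 0 array of letter a that stands apart: without letter a at time 0 the blocked change was 0.00 (adjusted p = 0.997). The other probe sets of Ccnd1 changed by -0.20 and -0.43 in the insulin culture. With the block the second of these passed (adjusted p = 0.0209) and the first did not (adjusted p = 0.231). In the control culture the same 2 probe sets of Ccnd1 changed by -0.58 (adjusted p = 0.0902) and -0.70 (adjusted p = 0.00352). With the block both passed there (adjusted p = 3.91e-05 and 5.64e-05). The other probe set of Cdkn1b had 0.02 in the control culture and did not pass with the block (adjusted p = 0.965). The change of Ccng2 in the control culture was 1.09 without letter c (adjusted p = 0.0525), and that of Ccnd1 did not pass without letter b (-0.76, adjusted p = 0.347) or without letter c (-0.61, adjusted p = 0.231). Whether the change differs between the cultures is the test relative to time 0 above. Ccng2 passed it only with a block, of the letter (adjusted p = 0.0046) or of letter and hour together (adjusted p = 0.000948).

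**Figure D5:**
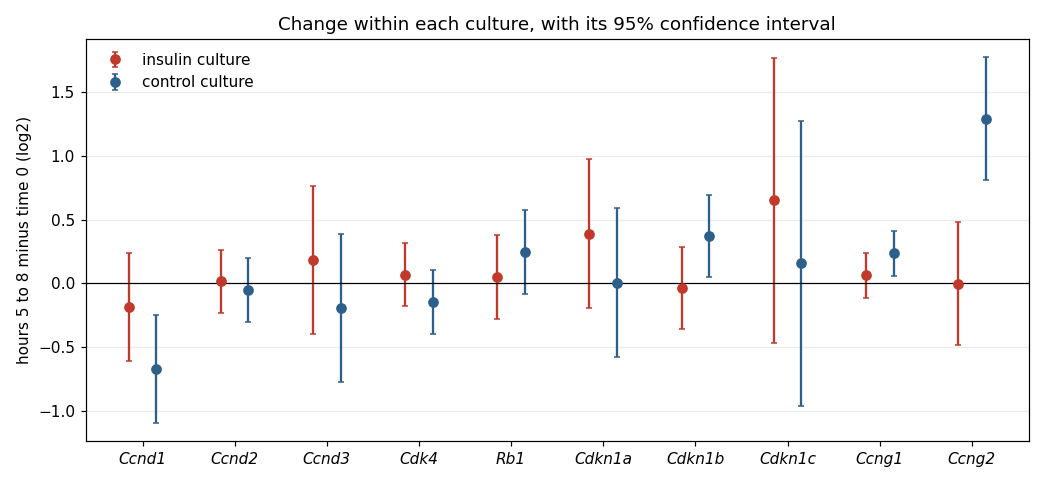
Hours 5 to 8 minus time 0 on the log2 scale for each gene, insulin culture (red, left of each pair) and control culture (blue), with 95% confidence intervals from the limma fit. In the control culture Ccng2 lies at 1.29 and Ccnd1 at -0.67, and in the insulin culture every interval holds 0.

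The other genes of G1 control were counted over hours 1 to 8 against 5.53% of all tested probe sets higher and 6.63% lower, and with the letter as a block against 11.7% higher and 15.2% lower. In the list of E and A cyclins, other kinases and activators, 1 of 11 was higher, Mnat1 (0.17, adjusted p = 0.0225), a subunit of the Cdk-activating kinase, and 0 were lower. With the block 5 were higher, Mnat1, its partner cyclin H (Ccnh), the E cyclins Ccne1 and Ccne2 and cyclin A2 (Ccna2). Ccne1, cyclin E1, passed in hours 5 to 8 (0.49, SE 0.13, adjusted p = 0.0105), as did the phosphatase gene Cdc25a (0.21, SE 0.066, adjusted p = 0.0379). Of the INK4 inhibitors, which bind Cdk4 and Cdk6, 0 of 3 passed, and with the block 1 was lower, Cdkn2c (-0.14, adjusted p = 0.0456). Among pocket proteins, E2F and DP factors, 1 of 11 was higher, E2f2 (0.42, SE 0.12, adjusted p = 0.0172), and 2 were lower, Rbl2 (-0.32, SE 0.041, adjusted p = 5.03e-07), which encodes the pocket protein p130 of resting cells, and Tfdp2 (-0.28, SE 0.076, adjusted p = 0.0109), a partner of E2F. Their late differences, of hours 5 to 8, were 0.87 for E2f2, -0.56 for Rbl2 and -0.44 for Tfdp2, and with the block 3 genes of this list were higher and 2 lower. Of 13 ubiquitin ligase genes that act on cyclins and Cdk inhibitors 0 passed, and with the block 1 was higher, Dtl (0.24, adjusted p = 0.0042), and 3 were lower, Ddb1 (-0.20, adjusted p = 5.6e-05), Fbxo31 (-0.16, adjusted p = 0.00242) and Ambra1 (-0.19, adjusted p = 0.0132). Of 11 other cyclins 1 was lower, Ccni (-0.09, adjusted p = 0.0446). With the block 2 were lower and 1 was higher, Ccnh, which is on both lists and was counted above with the E and A cyclins.

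Of 16 further FOXO factors and targets tested, 8 were lower and 0 higher over hours 1 to 8, with a median of -0.25, against the 6.63% of all probe sets called lower, and 11 were lower with the letter as a block, against 15.2%. The list was chosen with results of these arrays known, so its direction is not independent evidence. Besides Rbl2 they included the pyruvate dehydrogenase kinase gene Pdk4 (-1.03), the pro-apoptotic Bcl2l11 (-0.93), the stress gene Sesn1 (-0.57), the adaptor gene Irs2 (-0.44) and the factor genes Foxo3 (-0.42) and Foxo4 (-0.33), whereas Foxo1 had -0.02 (adjusted p = 0.803). Among 12 p53 targets other than the members, 1 was higher, Sesn2 (0.34, adjusted p = 0.00935), and 3 were lower, Sesn1, which is on both lists, Bbc3 (-0.19, adjusted p = 0.00265) and Ppm1d (-0.24, adjusted p = 0.0309), against 5.53% of all higher and 6.63% lower. With the block 1 was higher and 4 were lower. Of 11 mitogen regulators of D cyclins, 4 were higher, Myc (0.61, SE 0.12), Fosl1 (0.59, SE 0.14), Egr1 (0.68, SE 0.17) and Ctnnb1 (0.07, SE 0.023), and 1 was lower, Jun (-0.43, SE 0.064), against the same 5.53% and 6.63%, and the counts with the block were also 4 and 1.

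Across the 18 group means, the genes most like Ccng2 among 11576 others were Pik3ip1, an inhibitor of PI3K, with a Pearson correlation of 0.982, Tmem140 with 0.975 and Atg14, an autophagy gene, with 0.973. The closest to Cdkn1b were Hbp1 with 0.920, Zfp622 with 0.916 and Cnppd1 with 0.905, and to Ccnd1 Dcun1d5 with 0.968, Gar1, of a small nucleolar ribonucleoprotein, with 0.966 and Aimp2 with 0.966. Among the members, Ccng2 and Cdkn1b correlated at 0.873 and Ccng2 and Ccnd1 at -0.936. These points share arrays and days, and the correlations are descriptions.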

How the data were processed

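RNA of L6 myotubes had been hybridized to Affymetrix rat arrays. The authors subtracted background, applied quantile normalization and summarized probes with RMA (version not given in the sources used here), and the deposited values are log2 levels, whose precision the number of arrays limits. Arrays were grouped by culture, hour and letter from their labels. Of 31099 probe sets, 57 controls were left out and the brightest 21958 (mean of 5.04 or more) were tested; the authors' detection calls were not used here. In R 4.3.3, limma 3.58.1 fitted 1 mean per group with a variance trend, and two-sided p-values were corrected by the Benjamini-Hochberg method across the tested probe sets (threshold 0.05). The scripts were tested on simulated data. Same-letter arrays were taken to come from the same day, which the labels do not state. In all 26 pairs of equal letter and hour the deviations from the group mean correlated, at 0.207 to 0.787. The letters were therefore used to pair the arrays. The fit with the letter as a block is given where it changes the call of a member or the count of a list. P-values rest on the spread among arrays of 3 days of 1 cell line. Arrays of different hours of 1 letter enter as independent, except with 1 mean per letter. The block takes out 1 offset per letter. It does not take out the step in letter b between the control arrays of hours 0 to 5 and the later ones. Blocked comparisons of late hours with early hours or with time 0 still contain that step. Members, lists and tests were chosen with earlier results of these data known. All 10 members were named at their brightest probe set, with up to 4 called genes of each list and the 3 genes most like each called member; Ccne1, Cdc25a, Foxo1, Foxo3, Foxo4 and the genes called with the block alone were added after their values were seen. The lists not described in the report were undifferentiated myoblasts (0 of 3 called, 1 lower with the block), fibroblasts (0 of 6, 3 lower with the block), adipocytes (0 of 1, 1 lower with the block) and macrophages (1 of 2, Cd68, with 0.14). The last hourly pool carries 2 different sets of minutes in its labels and was used as hour 8. Promoter letters are from RefSeq, GRCr8.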

Additional observations from a re-analysis of the deposited data

Results flagged for a closer look

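The difference between the insulin and control cultures changed between the early and the late hours for 1 member, Ccng2, by a test of the change itself: -1.125 on the log2 scale from hours 1 and 2 to hours 5 to 8 (limma, adjusted p = 0.0158). It had the same sign in every letter, and its cause was not tested.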

How the results depend on the processing

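No result changed its direction while called. Over hours 1 to 8, the count of members higher, 1 with all arrays, was 0 to 2 without 1 letter each, 0 with 1 mean per letter, 0 without letter b at hours 0 to 5, and 0 relative to time 0, also without letter a at time 0 and with the letter as a block. The count lower, 2, was 1 with 1 mean per letter, where Cdkn1b had -0.41 (adjusted p = 0.0902) and Ccng2 -1.07 (adjusted p = 0.0215), and 0 relative to time 0, also without letter a at time 0 and with the letter as a block. With letter and hour together as a block, Ccng2 did pass relative to time 0 (-0.92, adjusted p = 0.0488). In hours 5 to 8 the count higher, 1, was 0 to 1 without 1 letter each and 0 relative to time 0, and the count lower, 2, was 0 relative to time 0 and 1 relative to time 0 with the block. For the change between early and late hours, the count higher, 0, was 1 with the block and with the block by hour, and the count lower, 1, was 3 with either block, 3 with array weights, 0 without letter b at hours 0 to 5, and 0 to 2 without 1 letter each. The alternatives chosen after seeing the data were those without letter a at time 0 and those relative to time 0 with the block. Other probe set filters, the variance trend, median centring and a second quantile normalization changed no call of insulin against control among the members. Over all tested probe sets the counts moved more: over hours 1 to 8, 0 to 2646 higher (1215 with all arrays) and 0 to 3332 lower (1456), in hours 5 to 8, 3 to 2052 higher (882) and 14 to 2749 lower (1170), and for the change, 1 to 1369 higher (204) and 3 to 1264 lower (201). The cause of these moves was not tested. In the control culture, Ccnd1 did not pass with all probe sets tested (adjusted p = 0.0582), after a second quantile normalization (adjusted p = 0.0533) or without letter b at hours 0 to 5 (adjusted p = 0.351). Beyond the calls given here and in the report, the block changed no call of a member at its brightest probe set. With 3 days, and for Ccnd2 a low level, a gene that was not called may still differ by an amount within its printed interval.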
